A study of Mus musculus with 24 samples.

Results

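The genes described here encode the activin and inhibin subunits, follistatin and the activin receptors: Fst, Inha, Inhba, Inhbb, Acvr1, Acvr1b, Acvr2a and Acvr2b. Members were taken by gene symbol, as the probe sets that the platform annotation assigns to a single one of these genes, which gave all 8 genes of the 8251 named in this way, at 9 of 12422 probe sets (1 per gene, and 2 for Acvr2a). They were measured by Affymetrix array in mouse uterus in 8 groups of 3 arrays, 24 arrays in all. The groups were PRKO mice, which lack the progesterone receptor, and wild-type (WT) mice, each given progesterone (P4, 1 mg per mouse in sesame oil) or the sesame oil vehicle, and each examined at 4 h or 40 h. All mice of every group had their ovaries removed at 6 weeks of age and were injected 2 weeks later. The 4 h uteri were taken 4 h after 1 injection, and the 40 h uteri 4 h after the last of 4 injections given 12 h apart. The sources used here name neither the knockout allele nor the strain. Uterine RNA from 5 mice was combined for each genotype and treatment. Nothing says that the 3 arrays of a group came from different pools, so every SD and p-value below measures the spread between arrays, which may be technical.

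Activins are dimers of inhibin beta subunits, encoded by Inhba and Inhbb, and inhibins pair a beta subunit with the alpha subunit encoded by Inha. Activin binds a type II receptor (Acvr2a or Acvr2b), which recruits and phosphorylates a type I receptor such as Acvr1b, and the type I receptor then phosphorylates Smad2 and Smad3. Follistatin, encoded by Fst, is a secreted protein that binds activin and keeps it from its receptors. In the mouse uterus follistatin and activin signalling act in the response of the endometrium to the implanting embryo, the process called decidualization.

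Signals are given on a linear scale after each array was brought to a trimmed mean of 500, and log2 changes were fitted after 32 was added to the signal, which compresses the changes of dim probe sets. Probe sets called risen, fallen or passed had an adjusted p under 0.05 by limma, adjusted over all 12422 probe sets. Of the uterine marker lists, all 11 endometrial stroma genes, all 13 epithelial genes and 8 of 9 smooth muscle genes were measured. None was at 0 on any array and none had a mean signal under 100 over the 24 arrays. The same held for the 6 measured of 7 ovary genes, Inha among them, though the ovaries had been removed. Signals of this size therefore do not by themselves show that a gene is expressed or a tissue is present. The probe set of Pgr, the progesterone receptor gene that is targeted in PRKO, gave 126 ± 4.48 in PRKO against 144.7 ± 4.5 in WT vehicle uteri at 4 h, and 129.4 ± 9.59 in PRKO against 146.8 ± 16.1 in WT vehicle uteri at 40 h (SD, n = 3 each). Neither difference passed (−0.16 ± 0.08 and −0.15 ± 0.08 on the log2 scale, adjusted p = 1 for both, limma). Under P4 it gave 115.4 ± 3.78 in PRKO against 120.7 ± 18.3 in WT uteri at 4 h (−0.04 ± 0.08, adjusted p = 0.969), and 116.2 ± 8.88 in PRKO against 156.3 ± 12.5 in WT uteri at 40 h, where the arrays did not overlap and the difference passed (−0.34 ± 0.08, adjusted p = 0.0307, limma). The Pgr vehicle arrays of 4 h did not overlap either, with 121.3 to 130.3 in PRKO against 140.1 to 149.1 in WT uteri. The vehicle arrays of 40 h and the P4 arrays of 4 h overlapped. The PRKO mean was the lower one in all 4 comparisons of genotype, the direction of the labels. The sources used here do not say where these probes lie relative to the deletion. On 2 arrays, WT P4 replicate 2 and WT vehicle replicate 2 at 4 h, the 3' to 5' signal ratio of the Gapdh control was 3.25 and 3.67, against 1.23 to 1.86 on the other 22, so the calls of 4 h are also given without them, a choice made after seeing the data where genes outside the family are concerned.

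Fst, the activin-binding protein, was higher in progesterone-treated WT uteri at 4 h, past the test, and lay above vehicle at 40 h without passing it. In PRKO uteri its P4 and vehicle arrays overlapped at both times. At 4 h its signal was 289, 299 and 105 on the 3 P4 arrays of WT, against 99.6, 102 and 85.0 on the WT vehicle arrays. Replicates 1 and 2 of P4 lay far above all vehicle arrays, while replicate 3 lay only just above the highest of them. The mean was 231 ± 109.5 with P4 and 95.6 ± 9.27 with vehicle (SD, n = 3 each), a ratio of 2.42. The vehicle signal was low, under 100 and close to that of the probe sets called dim below. The mean of Fst over the 24 arrays, 134.7, was at percentile 23 of all probe sets. In bulk tissue, more or fewer cells of a type and more or less RNA per cell cannot be told apart. The log2 change was 0.94 ± 0.21 (SE; 95% interval 0.51 to 1.36) with an adjusted p of 0.0275 by limma, so Fst rose at 4 h. It was 1 of 9 member probe sets that passed at 4 h in WT uteri, against 0.708% of all probe sets in either direction and 0.523% upward. The call depended on single arrays. Without P4 replicate 3 the log2 change was 1.36 (adjusted p = 2.58e-07), without P4 replicate 1 it was 0.74 (adjusted p = 0.26), without P4 replicate 2 it was 0.72 (adjusted p = 0.292), and without both arrays of high Gapdh ratio it was 0.76 (adjusted p = 0.429). Leaving out vehicle replicate 1, 2 or 3 gave an adjusted p of 0.0848, 0.0719 or 0.102, and a spread taken from the 4 h arrays alone gave 0.305. The fit above did not pair arrays by replicate number. With the number as a block the adjusted p was 0.00848 by limma, and the call held in 9 of 17 alternatives.

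Cited2 and Ihh, which also rose in WT uteri at 4 h, were lowest on P4 replicate 3 too, and lay above every vehicle array there. Gata2, a transcription factor that rose as well, was instead lowest on P4 replicate 2. It had 3054, 2555 and 2679 on the 3 WT P4 arrays at 4 h, against 2044, 1574 and 1883 with vehicle. Cited2, a transcriptional co-regulator, had 1676, 1707 and 1589 on the 3 WT P4 arrays at 4 h, against 681.9, 609 and 850.4 on the vehicle arrays. Ihh, the Indian hedgehog ligand made by uterine epithelium, had 1272, 1397 and 1196 with P4, against 790.8, 847.9 and 1038 with vehicle. Clcn5, a chloride and proton exchanger that rose as well, had 655.9, 816.4 and 485.2 with P4, against 364.6, 368.2 and 409.4 with vehicle. For Clcn5 replicate 3 was the lowest P4 array and lay above the vehicle arrays. Clcn5 was chosen by its likeness to Fst on these same arrays, so its low replicate 3 is not independent of that of Fst. For Cited2 and Ihh, replicate 3 lay close to the other P4 arrays. The cause of the low Fst signal on replicate 3 was not tested.

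After 40 h of treatment the Fst signal in WT uteri was 246, 203 and 165 with P4, against 121, 116 and 100 with vehicle. All P4 arrays lay above all vehicle arrays. The mean was 204 ± 40.3 with P4 and 112 ± 11 with vehicle (SD, n = 3 each), a ratio of 1.82. The log2 change of 0.70 ± 0.21 (95% interval 0.28 to 1.13) had an unadjusted p of 0.00255 and an adjusted p of 0.101 by limma, so it missed the threshold with one spread for all 24 arrays. It passed when the spread came from the 40 h arrays alone (adjusted p = 0.00242). Within groups, arrays had a median SD of log2 signal of 0.0767 to 0.0974 at 40 h and 0.111 to 0.147 at 4 h. The difference between the WT effects at 40 h and 4 h was −0.24 ± 0.29 for Fst (95% interval −0.84 to 0.36, adjusted p = 1). By limma 0 of 9 members passed in this difference (1 at an unadjusted p under 0.05, Inhbb), against 0.475% of all probe sets, or 6.39% at an unadjusted p under 0.05. Without WT P4 replicate 3 of 4 h it was −0.66 (adjusted p = 0.0293).

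In PRKO uteri Fst had 101, 110.4 and 92.9 with P4 at 4 h, against 111, 105 and 109 with vehicle. At 40 h it had 116, 107 and 106 with P4, against 119.8, 110.3 and 115 with vehicle. The PRKO groups overlapped at both times. The log2 changes were −0.07 ± 0.21 at 4 h (95% interval −0.50 to 0.35) and −0.05 ± 0.21 at 40 h (95% interval −0.48 to 0.37), so a rise as large as the 0.94 and 0.70 fitted in WT lies above both intervals. Across the whole set, the 6 WT P4 arrays ran from 104.7 to 299 and the other 18 arrays from 85.03 to 121. By group mean the order was WT P4 at 4 h (231.1), WT P4 at 40 h (204.5), and then the other 6 groups between 95.6 and 115. The arrays of the first pair overlapped, and those of WT P4 at 40 h did not overlap the next group, PRKO vehicle at 40 h. Among those 6, neighbours in the order did not differ beyond the spread of their arrays.

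**Figure D1:**
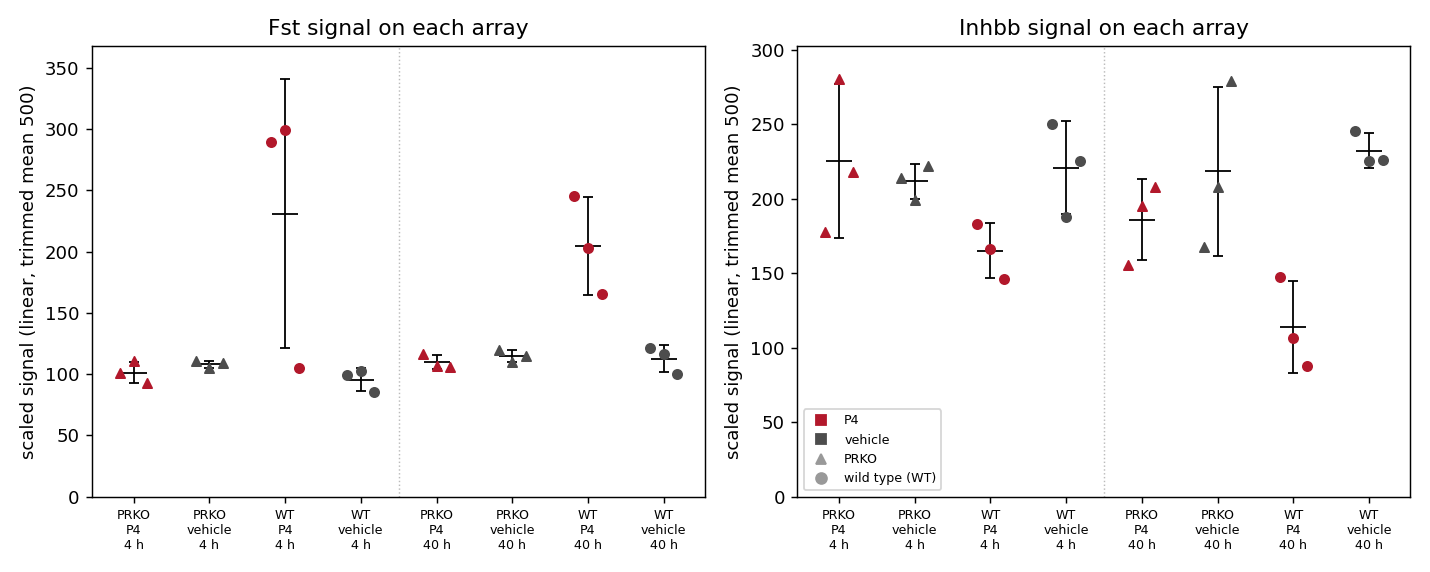
Scaled signal of Fst (left panel) and Inhbb (right panel) on each of the 24 arrays, by genotype, treatment and time; points are arrays, triangles PRKO and circles WT, red P4 and grey vehicle, and bars the mean ± SD of 3 arrays. For Fst, 5 of the 6 WT P4 arrays stand above all others and WT P4 replicate 3 at 4 h, at 105, does not; for Inhbb, WT P4 at 40 h has the lowest mean, 113.9.

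Inhbb, which encodes the beta subunit of activin B, moved the opposite way: it was lower in progesterone-treated WT uteri. At 40 h its signal was 147, 107 and 87.5 with P4, against 246, 225 and 226 with vehicle. Every P4 array lay well below every vehicle array. The mean was 114 ± 30.6 with P4 and 232 ± 11.5 with vehicle (SD, n = 3 each), a ratio of 0.49. The log2 change was −0.88 ± 0.16 (SE; 95% interval −1.21 to −0.54) with an adjusted p of 0.00424 by limma, so Inhbb fell at 40 h. It was 1 of 9 member probe sets that passed at 40 h in WT uteri, against 1.54% of all probe sets in either direction and 0.821% downward. It passed in 16 of 16 alternatives of processing, scaling and left-out arrays, with log2 changes between −1.04 and −0.58 and adjusted p between 0.000655 and 0.0378.

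At 4 h the Inhbb signal in WT uteri was 183, 166 and 146 with P4, against 250, 188 and 225 with vehicle. The groups did not overlap, but the lowest vehicle array lay close to the highest P4 array. The log2 change of −0.36 ± 0.16 (95% interval −0.69 to −0.02) had an unadjusted p of 0.0377 and an adjusted p of 0.736 by limma, so it did not pass. At 4 h in WT uteri 2 of 9 members, Fst and Inhbb, had an unadjusted p under 0.05, against 6.23% of all probe sets. The effect at 40 h minus the effect at 4 h was −0.52 ± 0.23, with an adjusted p of 0.651. Of the 9 member probe sets, Fst and Inhbb were the 2 whose P4 and vehicle arrays did not overlap at 4 h in WT, where 6.67% of all probe sets were so separated.

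In PRKO uteri Inhbb had 178, 280.2 and 218 with P4 at 4 h, against 214, 199 and 222 with vehicle. At 40 h it had 155, 195 and 208 with P4, against 168, 208 and 279 with vehicle. The arrays of the groups overlapped at both times. The log2 changes were 0.06 ± 0.16 at 4 h (95% interval −0.27 to 0.40, adjusted p = 1) and −0.18 ± 0.16 at 40 h (95% interval −0.52 to 0.15, adjusted p = 0.753). By group mean, WT P4 at 40 h was lowest at 113.9, WT P4 at 4 h next at 165.2 and PRKO P4 at 40 h after it at 186.1. The remaining 5 groups lay between 211.7 and 232.4, and neighbours anywhere in this order did not differ beyond the spread of their arrays.

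Markers of several cell types moved in WT uteri at 40 h as well. Of 9 measured adipose genes 5 fell (Adipoq, Cidec, Lpl, Car3 and Retn), and their summed signal per array was 6083 to 10400 with P4 against 14370 to 16470 with vehicle. Of 11 endometrial stroma genes 4 rose (Col1a1, Col1a2, Col3a1 and Hoxa11), with sums of 33680 to 37790 with P4 against 23880 to 29830 with vehicle. The probe sets used for Col1a1 and Col1a2 changed by 0.78 and 0.79, and their second probe sets by 0.36 and 0.061. The Col3a1 probe set changed by 0.91, and its other probe sets by 0.81 and 0.9. Of 13 epithelial genes Spink1 rose while Krt7 and Tspan8 fell, with sums of 10610 to 11970 with P4 against 11550 to 12520 with vehicle. Of 8 smooth muscle genes 0 passed by limma, but all 8 were higher with P4 and 5 had an unadjusted p under 0.05, with sums of 34360 to 36790 with P4 against 29420 to 31380 with vehicle. Of 8 endothelial genes Cldn5 fell (−0.79 ± 0.18, adjusted p = 0.024), with endothelial sums of 6602 to 7132 with P4 against 6727 to 7420 with vehicle. Cldn5 was the only endothelial gene with an unadjusted p under 0.05. Of the 8, 5 were higher with P4, and the median log2 change was 0.025. Of 6 macrophage genes 0 passed by limma (1 at an unadjusted p under 0.05), with sums of 4000 to 4240 with P4 against 3606 to 3848 with vehicle. The Gapdh 3' to 5' ratio was 1.23 to 1.3 on the P4 arrays and 1.48 to 1.6 on the vehicle arrays. At 4 h in WT uteri the adipose sums overlapped, 12750 to 17060 with P4 against 15450 to 18560 with vehicle. Of the 13 epithelial genes Tspan8 fell at 4 h (−0.95 ± 0.17, adjusted p = 0.0044, or −0.99 and 0.0655 without both arrays of high Gapdh ratio). Of the 13, 11 were lower with P4 at 4 h and 6 had an unadjusted p under 0.05, with a median of −0.16 and sums of 9789 to 11530 with P4 against 10930 to 13200 with vehicle. In PRKO uteri at 40 h the adipose sums were lower too, 12800 to 15020 with P4 against 15570 to 17830 with vehicle. The stroma sums were higher (28210 to 29910 against 25680 to 27020), as were those of smooth muscle (29920 to 31580 against 28070 to 28840). The macrophage sums were lower, unlike in WT (3048 to 3165 against 3216 to 3454), and no marker gene of these lists passed there by limma. No marker of these lists was at 0 on any array, and their part in the Fst and Inhbb results was not tested.

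The remaining subunits did not pass in any of the 11 comparisons. Inha, the alpha subunit that makes inhibins, lay between 233 and 288 on the 24 arrays. Its PRKO arrays at 40 h were separated, with 233, 242 and 244 for P4 against 258, 252 and 265 for vehicle, but the log2 change was small, −0.10 ± 0.06 (adjusted p = 0.703, limma). In WT uteri at 40 h Inha had 237, 258 and 266 with P4 against 265, 265 and 272 with vehicle, which overlapped. Inhba, the beta subunit of activin A, was dim, between 65.1 and 89.5 on the 24 arrays. At that level little change can be read: its log2 changes with P4 were −0.07 at 4 h and −0.03 at 40 h in WT uteri. These are levels of separate probe sets, and the 2 beta subunit genes were not compared with each other.

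The promoters of the 3 subunit genes are shown because Inhbb passed while Inha and Inhba did not. The sequences are the 250 bases before the annotated start, from RefSeq on the GRCm38.p6 build, read 5′ to 3′ along the gene's strand; Fst had no entry in the table used, which matched 7 of the 8 genes. The Inhbb window lies at chr1:119422249-119422498 on the minus strand, the Inhba window at chr13:16011601-16011850 on the plus strand and the Inha window at chr1:75507359-75507608 on the plus strand.
Inhbb: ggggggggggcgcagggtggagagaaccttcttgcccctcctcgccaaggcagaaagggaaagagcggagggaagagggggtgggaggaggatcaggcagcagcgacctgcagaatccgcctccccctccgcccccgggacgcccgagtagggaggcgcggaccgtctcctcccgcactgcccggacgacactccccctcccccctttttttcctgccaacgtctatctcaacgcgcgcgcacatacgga
Inhba: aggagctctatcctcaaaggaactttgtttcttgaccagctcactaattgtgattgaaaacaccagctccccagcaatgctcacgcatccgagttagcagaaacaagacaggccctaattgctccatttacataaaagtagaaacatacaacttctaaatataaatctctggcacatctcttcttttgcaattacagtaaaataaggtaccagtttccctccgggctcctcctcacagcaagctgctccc
Inha: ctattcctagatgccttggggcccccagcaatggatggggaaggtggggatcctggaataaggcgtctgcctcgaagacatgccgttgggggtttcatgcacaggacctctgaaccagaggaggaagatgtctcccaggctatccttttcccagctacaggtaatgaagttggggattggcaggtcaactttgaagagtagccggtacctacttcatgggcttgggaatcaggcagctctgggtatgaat
The Inhbb bases were 68% G or C, against 43.2% for Inhba and 53.6% for Inha, and the 4 receptor genes had 72.8% to 85.6%. Windows of 300 bases, with 50 bases after the start added, were searched on both strands for 5 motifs: the progesterone and glucocorticoid receptor element (GNACA and TGTNC with 3 bases between), its half-site AGAACA, the estrogen receptor element (GGTCA and TGACC with 3 bases between), the Smad element CAGACA and the cyclic AMP element TGACGTCA. The single match in the 7 member windows was a half-site in Inhbb, whose first base is base 34 after the start. It is shown in capitals within the 20 bases of chr1:119422203-119422222 on the minus strand.
Inhbb half-site: gaaaaaaAGAACAgggagtg
A half-site can lie inside the full element. The half-site occurs in 19% of 32851 RefSeq promoter windows of that length, the full element in 0.475%, the estrogen receptor element in 0.07%, the Smad element in 21% and the cyclic AMP element in 1.79%. A match of letters describes the sequence only.

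The receptors were read as type II, which bind the ligand, and type I, which carry the signal on. For the type II receptor Acvr2a the brighter probe set had 236, 308 and 289 in WT P4 uteri at 40 h, against 282, 423 and 391 in WT vehicle uteri. The lowest vehicle array lay inside the P4 range. The log2 change of −0.35 ± 0.16 had an unadjusted p of 0.0415 and an adjusted p of 0.39 by limma. At 40 h in WT uteri 4 of 9 members, namely Fst, Inhbb, this Acvr2a probe set and Acvr2b, had an unadjusted p under 0.05, against 11.7% of all probe sets. At 4 h the log2 change was −0.26 ± 0.16 (adjusted p = 0.945), with 295, 334 and 369.8 for P4 against 500.4, 304 and 433 for vehicle. The second Acvr2a probe set was dim (71.0 to 100.2 on the 24 arrays) and its log2 change at 40 h was 0.01, so the probe sets of this gene did not move alike.

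Acvr2b, the other type II receptor, had 629, 595 and 608 in WT P4 uteri at 40 h, against 761, 732 and 693 in WT vehicle uteri. The groups did not overlap. The log2 change was −0.24 ± 0.09, with an unadjusted p of 0.0168 and an adjusted p of 0.26 by limma. A separation in the same direction appeared in PRKO uteri at 40 h, with 613, 645 and 621 for P4 against 653, 682 and 700.5 for vehicle, and a log2 change of −0.11 (adjusted p = 0.748). At 4 h in PRKO uteri 0 of 9 member probe sets were separated, against 4.31% of all probe sets. At 40 h, 3 of 9 member probe sets were separated in WT uteri (Fst, Inhbb and Acvr2b) and 2 of 9 in PRKO uteri (Inha and Acvr2b). Over all probe sets 19.8% were separated in WT and 22.3% in PRKO uteri at that time.

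The type I receptors did not pass in any of the 11 comparisons. Acvr1b, the main activin type I receptor, lay between 299 and 384 on the 24 arrays, with log2 changes of −0.02 at 40 h in WT and 0.13 at 4 h in PRKO uteri. Acvr1, a type I receptor used chiefly by bone morphogenetic proteins, lay between 123 and 192, with a log2 change of −0.01 at 40 h in WT uteri. For both, the groups overlapped in each P4 comparison and the ratio of the highest to the lowest group mean was 1.16 for Acvr1b and 1.19 for Acvr1, against 2.42 for Fst and 2.04 for Inhbb.

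**Figure D2:**
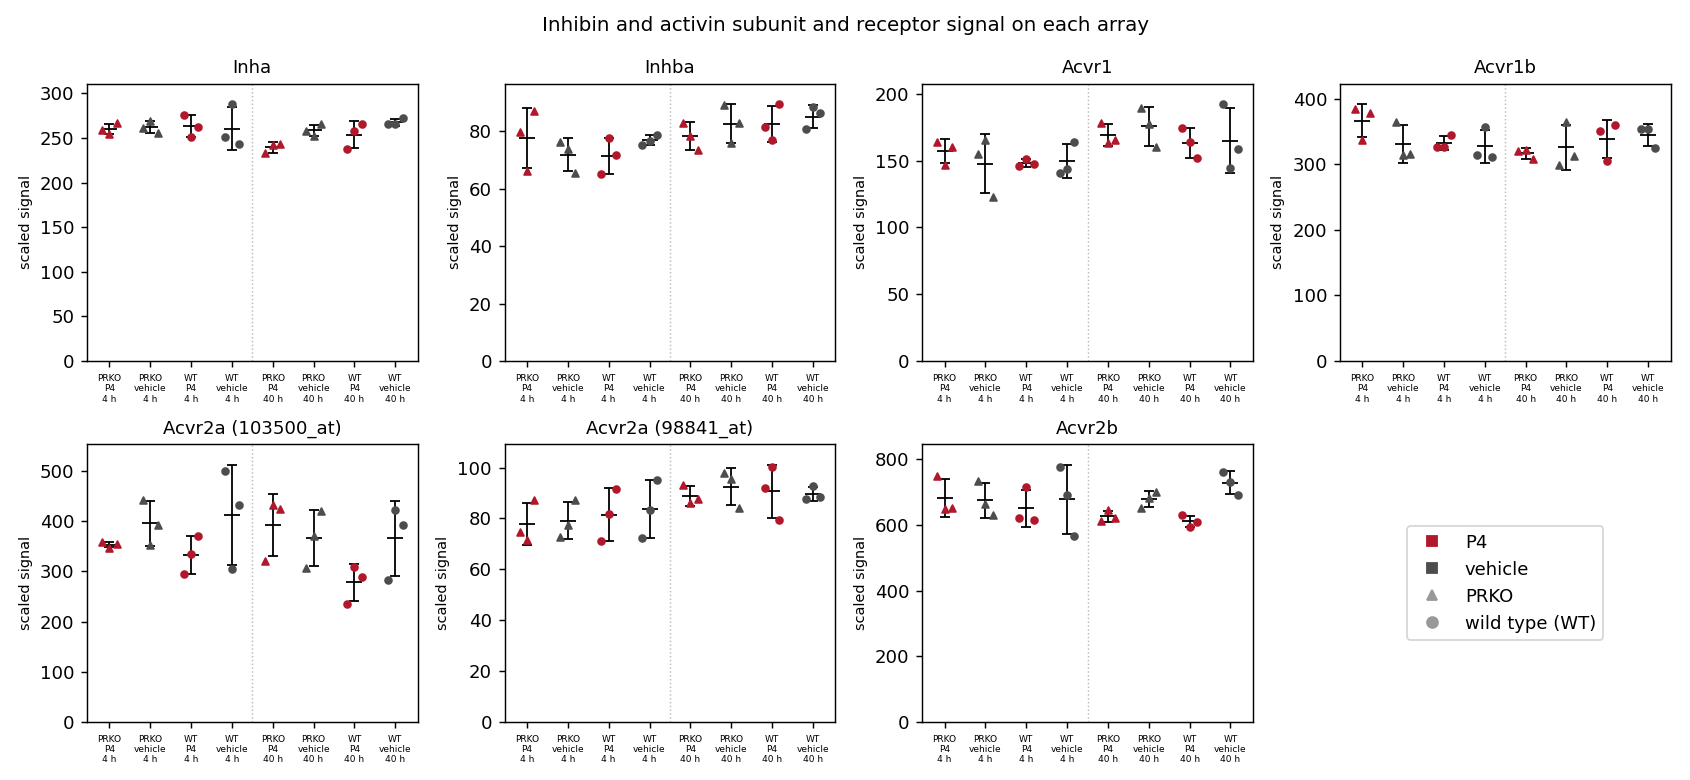
Scaled signal of the other 7 member probe sets on each of the 24 arrays, with the mean ± SD of 3 arrays per group; symbols and colours as in the plot of Fst and Inhbb, and each panel has its own linear axis from 0. The group means of each probe set lie within a ratio of 1.48 of each other, which is the ratio of the brighter Acvr2a probe set.

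Whether the P4 effect differed between genotypes was tested directly as the PRKO effect minus the WT effect. For Fst this was −1.01 ± 0.29 at 4 h (95% interval −1.61 to −0.41), with an unadjusted p of 0.00215 and an adjusted p of 0.423 by limma. At 40 h it was −0.75 ± 0.29 (95% interval −1.36 to −0.15; adjusted p = 0.476). For Inhbb it was 0.42 ± 0.23 at 4 h (adjusted p = 1) and 0.69 ± 0.23 at 40 h (95% interval 0.22 to 1.17; unadjusted p = 0.00593, adjusted p = 0.376). No member passed at either time (0 of 9; 1 at 4 h and 2 at 40 h had an unadjusted p under 0.05), against 0.0966% of all probe sets at 4 h and 0.105% at 40 h by adjusted p, and 3.49% and 9.1% by unadjusted p. Without WT P4 replicate 3 the Fst difference at 4 h was −1.43 with an adjusted p of 1.72e-05. In PRKO uteri alone, limma called 0 of 9 members at 4 h and 0 of 9 at 40 h, with none at an unadjusted p under 0.05, but it called 0% of all probe sets at both times there, against 1.9% and 6.69% at an unadjusted p under 0.05.

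The genotypes were also set side by side under the same injection. Under P4 at 4 h, Fst had 101, 110.4 and 92.9 in PRKO against 289, 299 and 105 in WT uteri, and WT replicate 3 lay inside the PRKO range. The log2 difference was −0.87 ± 0.21 (95% interval −1.30 to −0.45) with an adjusted p of 0.0333 by limma, 1 of 9 members against 1.22% of all probe sets. This call was lost without WT replicate 1 (adjusted p = 0.238) or 2 (0.281), without PRKO replicate 1 (0.119), 2 (0.0668) or 3 (0.134), without both arrays of high Gapdh ratio (0.289) and with the 4 h arrays alone (0.266), while without WT replicate 3 the difference was −1.29 (adjusted p = 3.04e-07). Under P4 at 40 h the Fst arrays of PRKO (116, 107 and 106) all lay below those of WT (246, 203 and 165), and the log2 difference of −0.73 ± 0.21 had an adjusted p of 0.0593. The Inhbb arrays of PRKO at 40 h (155, 195 and 208) all lay above those of WT (147, 107 and 87.5), with a log2 difference of 0.59 ± 0.16 and an adjusted p of 0.0509, or 0.75 and 0.028 without WT replicate 1. For the brighter Acvr2a probe set, PRKO had 321, 432 and 424 against 236, 308 and 289 in WT uteri, a log2 difference of 0.45 ± 0.16 (adjusted p = 0.121), and the dim probe set of the gene differed by −0.02. At 40 h under P4 0 of 9 members passed by limma, against 2.59% of all probe sets, 3 had an unadjusted p under 0.05, against 22.2%, and 3 of 9 were separated, against 35.2% of all probe sets. These comparisons share their P4 arrays with the comparisons against vehicle.

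Marker genes of other cell types differed between the genotypes under P4 as well. At 4 h, of 13 epithelial genes Tspan8 (0.82) and Krt18 (0.49) were higher and Cldn3 (−1.09) was lower in PRKO uteri, with sums of 9231 to 12440 in PRKO against 9789 to 11530 in WT uteri. The second probe sets of Krt18 and Cldn3 differed by 0.17 and −1.2. Without both arrays of high Gapdh ratio the adjusted p was 0.0569 for Tspan8, 0.149 for Krt18 and 0.00678 for Cldn3 by limma. At 40 h, 4 of 9 adipose genes were higher in PRKO (Adipoq, Cidec, Lpl and Car3), with sums of 12800 to 15020 in PRKO against 6083 to 10400 in WT uteri. The stroma genes Col1a1 and Col1a2 were lower in PRKO (−0.56 each), with sums of 28210 to 29910 in PRKO against 33680 to 37790 in WT uteri. The second probe sets of Col1a1 and Col1a2 differed by −0.5 and −0.22. The smooth muscle gene Myh11 was lower (−0.37), with sums of 29920 to 31580 in PRKO against 34360 to 36790 in WT uteri. The macrophage genes Csf1r (−0.45) and Cd14 (−0.54) were lower too, with sums of 3048 to 3165 in PRKO against 4000 to 4240 in WT uteri. Of the epithelial genes Spink1 and Cldn3 were lower and Krt7 and Tspan8 higher, with sums of 10300 to 10860 in PRKO against 10610 to 11970 in WT uteri. Under vehicle at 40 h some sums were also lower in PRKO than in WT uteri, without overlap. They were 9562 to 10440 against 11550 to 12520 for epithelium and 28070 to 28840 against 29420 to 31380 for smooth muscle. The macrophage sums were 3216 to 3454 against 3606 to 3848, and at 4 h 2874 to 3050 against 3229 to 4147. The adipose, stroma and endothelial sums overlapped under vehicle, and no marker gene of these lists passed there by limma. The part of these markers in the Fst, Inhbb, Acvr2a, Tgfbi, Id1 and Id3 differences under P4 was not tested.

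Under vehicle the members did not differ by genotype past the threshold. By limma 0 of 9 passed at 4 h and 0 of 9 at 40 h, with none at an unadjusted p under 0.05, against 0.185% of all probe sets at 4 h and 0.0644% at 40 h, or 5.02% and 3.08% by unadjusted p. Fst at 4 h was the 1 of 9 that was separated, against 6.05% of all probe sets, with 111, 105 and 109 in PRKO against 99.6, 102 and 85.0 in WT uteri, but the log2 difference was 0.14 ± 0.21 (95% interval −0.29 to 0.56). For Inhbb at 40 h the log2 difference was −0.10, with overlapping arrays.

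**Figure D3:**
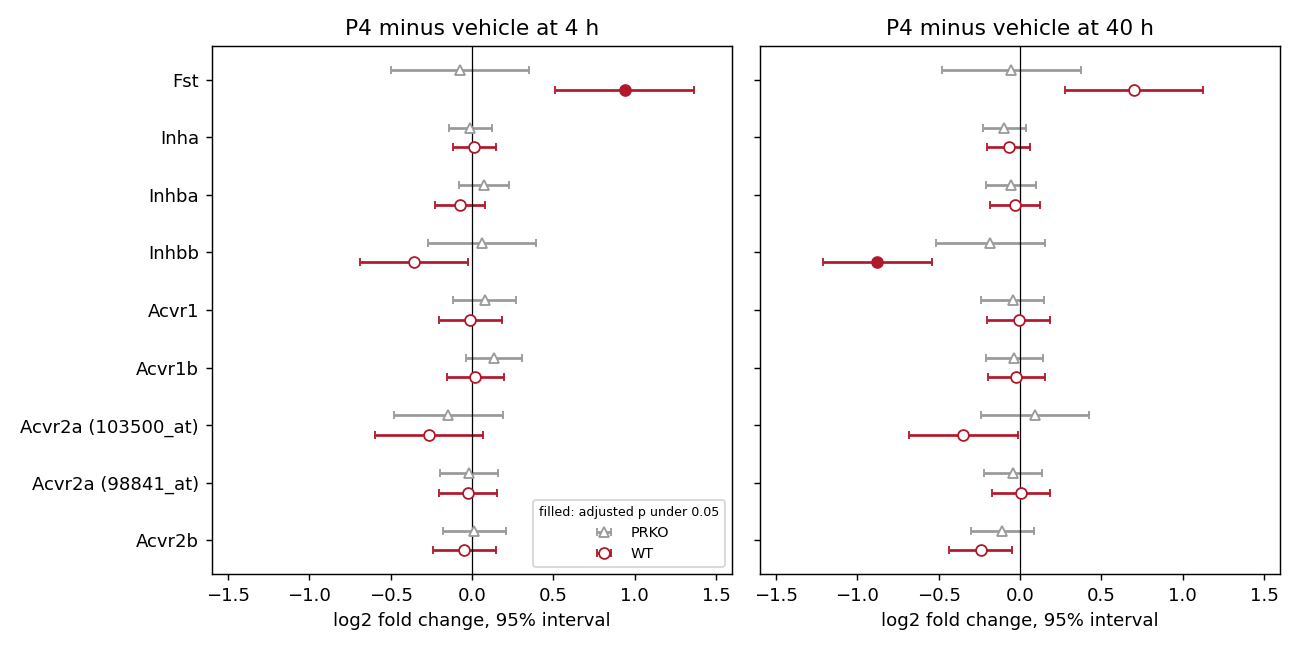
Log2 change of each member probe set with P4 in PRKO and WT uteri at 4 h and at 40 h, with the 95% interval from limma and filled points where the adjusted p was under 0.05; values above 0 mean higher with P4. The WT points of Fst (0.94 and 0.70) and Inhbb (−0.36 and −0.88) lie away from 0, and the PRKO points of both lie between −0.18 and 0.06.

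Over the 9 member probe sets the median size of the log2 change was 0.05 at 4 h and 0.07 at 40 h in WT uteri, against 0.07 and 0.09 over all probe sets. The median size of the member changes was thus no larger than that of the array. Apart from Fst and Inhbb, the other 7 probe sets had log2 changes between −0.26 and 0.02 at 4 h and between −0.35 and 0.01 at 40 h in WT uteri.

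The genes with the most similar pattern were sought over all 24 arrays by Pearson correlation of log2 signal, as a description, since the arrays share the treatment groups. For Fst the highest were Ednrb, the endothelin B receptor (r = 0.848), Clcn5 (r = 0.84), and Igf1, insulin-like growth factor I (r = 0.824). The second probe sets of Clcn5 and Igf1 had r of 0.013 and 0.019 with Fst. In WT uteri at 4 h Clcn5 rose by 0.70 ± 0.12 on the log2 scale (adjusted p = 0.00397), while Igf1 (0.76 ± 0.20, adjusted p = 0.122) and Ednrb (0.35 ± 0.13, adjusted p = 0.483) did not pass by limma. Without both arrays of high Gapdh ratio Clcn5 changed by 0.51 at 4 h (adjusted p = 0.115). At 40 h Clcn5 rose by 0.71 ± 0.12 (adjusted p = 0.0024) and Igf1 by 1.11 ± 0.20 (adjusted p = 0.00436) in WT uteri, while Ednrb did not pass (0.33 ± 0.13, adjusted p = 0.248, limma). These 3 probe sets were also lowest among the WT P4 arrays of 4 h on replicate 3. There Igf1 had 427.7 and Ednrb 122.4, both inside the range of the vehicle arrays (296.4 to 485.4 for Igf1 and 106.8 to 149 for Ednrb). They were chosen by their likeness to Fst on these arrays. For Inhbb the highest were Cd1d1, a lipid-presenting surface protein (r = 0.805), Prnp, the prion protein (r = 0.799), and Mkrn1, a ubiquitin ligase (r = 0.776), of which the 2 other Mkrn1 probe sets had r of −0.0004 and 0.178. In WT uteri at 40 h Cd1d1 changed by −0.78 ± 0.16 (adjusted p = 0.0127) and Prnp by −0.49 ± 0.09 (adjusted p = 0.00643), both lower with P4.

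The wider pathway was read from lists of related genes, each at its brightest probe set, with the medians over all probe sets near 0 (0.00 at 4 h and 0.00 at 40 h in WT uteri). Of 13 measured related ligands and extracellular regulators, 0 passed in any of the 11 comparisons by limma (1 at 4 h and 3 at 40 h in WT uteri had an unadjusted p under 0.05, against 6.23% and 11.7% of all probe sets), with log2 changes between −0.07 and 0.36 at 40 h in WT. Of 8 proteases that process these ligands and 7 related receptors, 0 passed in any comparison by limma, and none had an unadjusted p under 0.05 in WT uteri at either time. Of 15 Smads and their partners, which carry the signal to the nucleus, 0 passed in any comparison (0 at 4 h and 1 at 40 h at an unadjusted p under 0.05, against the same shares), with medians of −0.05 at 4 h and −0.04 at 40 h in WT uteri.

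Among 14 measured activin-responsive genes, 0 rose and 1 fell in WT uteri at 40 h, against 0.821% of all probe sets downward. Of the 14, 5 had an unadjusted p under 0.05 by limma, against 11.7% of all probe sets. Only 4 of the 14 were higher with P4, and the median log2 change was −0.09. The gene that fell was Tgfbi, a secreted matrix protein induced by TGF-beta. It had 626.6, 647 and 698.9 with P4 against 1500, 2935 and 2601 with vehicle. Its log2 change was −1.73 ± 0.23 (adjusted p = 0.00018, limma), and its second probe set changed by −0.06. Under P4 at 40 h, 3 of the 14 were higher in PRKO than in WT uteri, against 1.12% of all probe sets in that direction: Tgfbi by 1.37 ± 0.23 (adjusted p = 0.00175), Id3 by 0.76 ± 0.15 (adjusted p = 0.00685) and Id1 by 0.69 ± 0.13 (adjusted p = 0.00687). Id1 and Id3 are inhibitors of helix-loop-helix transcription factors and are known chiefly as targets of bone morphogenetic proteins. Under vehicle at 40 h the means of both were also higher in PRKO than in WT uteri, by 0.44 ± 0.13 for Id1 (adjusted p = 0.735) and 0.42 ± 0.15 for Id3 (adjusted p = 1), which did not pass. The PRKO effect minus the WT effect of P4 at 40 h was 0.24 for Id1 (adjusted p = 0.725) and 0.34 for Id3 (adjusted p = 0.646) by limma. For PRKO against WT under P4 at 40 h, 7 of the 14 had an unadjusted p under 0.05, against 22.2% of all probe sets. The median of the 14 in that comparison was 0.01.

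Of 11 uterine progesterone and decidual genes that act with the family, 3 rose in WT uteri at 4 h, against 0.523% of all probe sets in that direction: Cited2 by 1.19 ± 0.15 (adjusted p = 0.00029), Gata2, a transcription factor of the uterine progesterone response, by 0.59 ± 0.11 (adjusted p = 0.00781) and Ihh by 0.52 ± 0.11 (adjusted p = 0.0224). The second Gata2 probe set changed by 0.17. Without both arrays of high Gapdh ratio Cited2 changed by 1.07 (adjusted p = 0.0238), Gata2 by 0.54 (adjusted p = 0.0932) and Ihh by 0.43 (adjusted p = 0.447), so only the Cited2 call held there. In WT uteri at 40 h 0 of the 11 passed by limma, against 1.54% of all probe sets, and 4 had an unadjusted p under 0.05, against 11.7%. The Cited2 effect differed by time (−1.41 for 40 h minus 4 h, adjusted p = 0.00168) and by genotype at 4 h (−1.27 ± 0.21, adjusted p = 0.0151), which neither Fst nor Inhbb did past the threshold with all arrays. Without both arrays of high Gapdh ratio these differences of Cited2 were −1.28 (adjusted p = 0.0152) and −1.15 (adjusted p = 0.273), and those of Fst were −0.06 (adjusted p = 0.998) and −0.83 (adjusted p = 0.971).

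**Figure D4:**
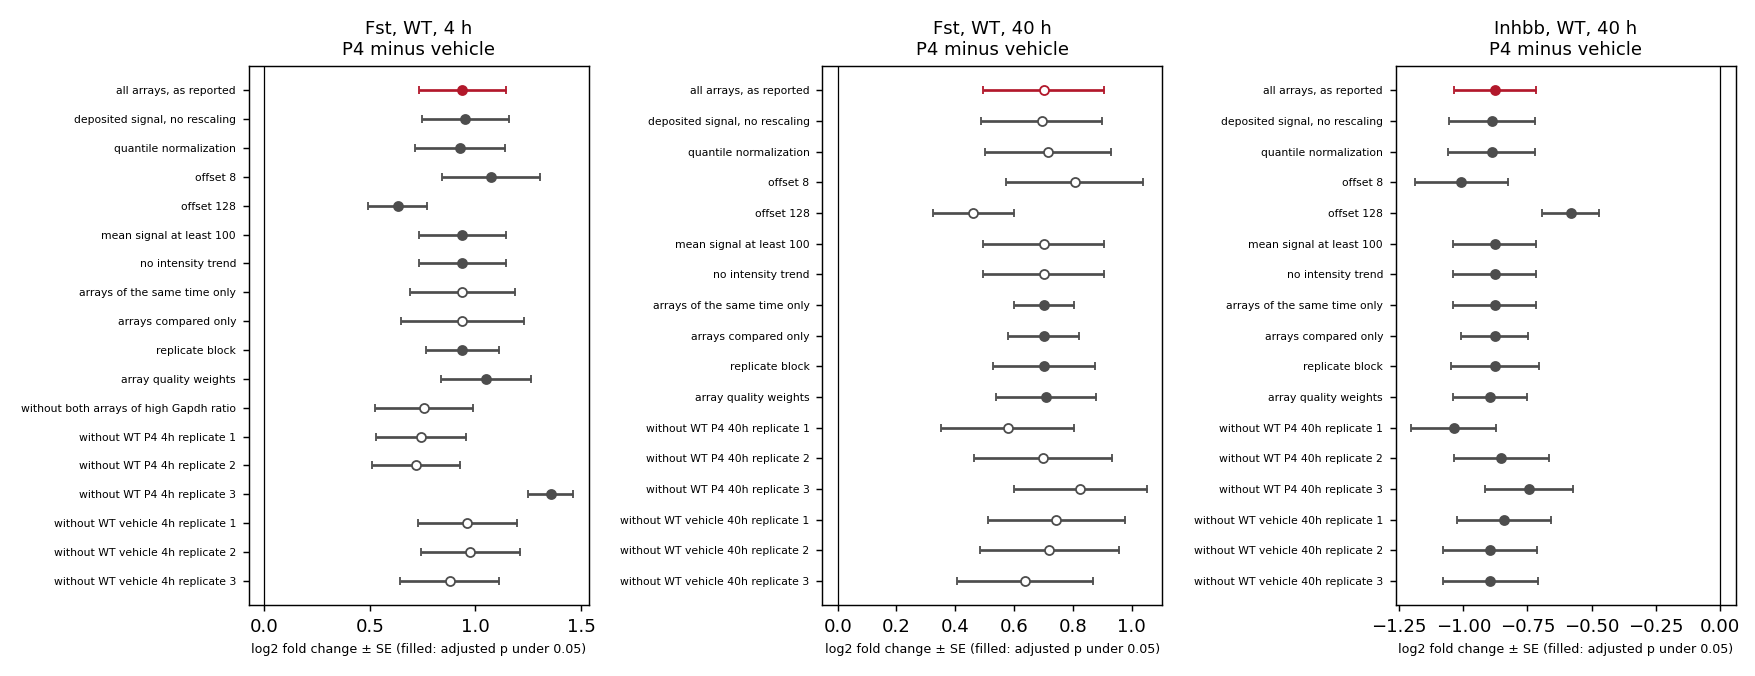
Log2 change with P4 in WT uteri for Fst at 4 h, Fst at 40 h and Inhbb at 40 h, under the main setting and each alternative; bars are ± SE, with filled points where the adjusted p was under 0.05. Inhbb at 40 h passed under 16 of 16 alternatives, Fst at 4 h under 9 of 17 and Fst at 40 h under 4 of 16, and no change crossed 0.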

How the data were processed

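Uterine RNA was hybridized to 24 Affymetrix mouse arrays, with 3 arrays in each of the 8 groups. The authors deposited signal intensity, linear and with 1 value per probe set and array. Per the submitters' processing notes MAS5 was used; the sources used here give neither its version nor its scaling. Array medians were 323.2 to 342.6 and detection calls were not used. With 3 arrays in a group, the number of arrays sets the precision.

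After 66 control probe sets were removed, the arrays were scaled to a common mean of 500, with 2% trimmed at each end (scaling factors from 0.954 to 1.03). Values were tested as log2(signal + 32). The 12422 probe sets were fitted together with limma 3.58.1 (R 4.3.3): 8 group means, moderated two-sided tests with an intensity trend, 16 residual and 4.98 prior degrees of freedom, and Benjamini-Hochberg adjustment over all probe sets within each of 11 comparisons. The fit was tested on simulated data. Genes were named from the platform annotation (10833 probe sets name 1 gene, 396 several, 1193 none).

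All member genes are named, with up to 4 passing genes per list and comparison, and for Fst and Inhbb the 3 genes of most similar signal. Passing marker genes were named after their values were seen. The members, lists and tests were chosen with earlier results of these data known. Same-numbered arrays were taken to deviate together where all pairs had r over 0.1. This held only in the WT comparison of 4 h (r = 0.114 to 0.516). All pairs were also positive in WT at 40 h (0.0686 to 0.142) and in PRKO P4 against vehicle at 40 h (0.0668 to 0.481). The same was true of PRKO against WT under vehicle at 4 h (0.0365 to 0.599). The main fit did not pair arrays in any comparison, and a replicate block was used only as an alternative. Alternatives were scaling, offset, a filter on dim probe sets, the prior, the arrays fitted, a replicate block, array weights and left-out arrays.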

Additional observations from a re-analysis of the deposited data

How the results depend on the processing

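Of 1742 member values recomputed under the alternatives, 1702 kept their call or lack of one, 16 lost a call, 24 gained one and 0 called values reversed. Uncalled values that changed direction were counted as kept. The counts below are member probe sets of 9 that passed by limma. With all arrays the count was 1 for P4 in WT uteri at 4 h (Fst), 1 at 40 h (Inhbb) and 1 for PRKO against WT under P4 at 4 h (Fst), and 0 in the other 8 comparisons. With arrays of the same time only, the counts were 0 for WT at 4 h, 0 for PRKO against WT under P4 at 4 h, 3 for WT at 40 h and 2 under P4 at 40 h. With the compared arrays only, they were 0 for WT at 4 h, 0 under P4 at 4 h, 2 for WT at 40 h and 1 under P4 at 40 h. Without both arrays of high Gapdh ratio the WT count at 4 h was 0 and that under P4 at 4 h was 0. Under P4 at 40 h the count was 1 with no rescaling, with quantile normalization, with an offset of 8 and with a mean signal of at least 100, where Inhbb passed. That filter left 7 of 9 member probe sets, without Inhba and the dim Acvr2a one. With array weights, 2 passed in WT at 40 h, 3 under P4 at 40 h and 3 in the genotype difference of the P4 effect at 40 h (Fst, Inhbb and Acvr2a).

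With the replicate number as a block, 2 passed in WT uteri at 40 h (Fst with an adjusted p of 0.0331 besides Inhbb) and 3 under P4 at 40 h (Fst, Inhbb and Acvr2a). At 4 h in WT uteri, where same-numbered arrays deviated together, Fst had an adjusted p of 0.00848 by limma with the block and the count stayed at 1. The block moved no other count. In WT at 40 h and in PRKO P4 against vehicle at 40 h each array correlated best with its own number, which is a hint from the data only.

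Leaving out 1 array at a time gave counts of 0 to 1 for WT at 4 h, 1 to 1 for WT at 40 h, 0 to 1 under P4 at 4 h and 0 to 1 under P4 at 40 h. It gave 0 to 1 for the genotype difference at 4 h and 0 to 1 for the time difference, where the call was Fst without WT P4 replicate 3 of 4 h. Leaving out any 1 vehicle array of WT at 4 h also ended the Fst call (adjusted p = 0.0848, 0.0719 and 0.102). Without WT P4 replicate 1 at 40 h, Inhbb passed under P4 (adjusted p = 0.028). The cause of these changes was not tested. Fewer arrays also give fewer degrees of freedom. Dim probe sets, the 3 arrays per group and the unknown separation of pools limit what can be read.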
